A study of Mus musculus with 5 samples.

Results

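This comparison covers the barcodes of untreated and proton-irradiated mouse salivary gland organoids (mSGOs) that carried nuclear RNA. A barcode of the droplet assay marks the RNA caught together in 1 droplet. Barcodes were chosen from the 2 libraries by 3 limits, at least 1000 unique molecular identifiers (UMIs, 1 per captured transcript), at most 5% of UMIs from mitochondrially encoded genes and at least 1% of UMIs from Malat1, a long RNA that stays in the nucleus. The limits left 2357 of the 25786 barcodes of both libraries, 1010 of 7151 in the control and 1347 of 18635 in the proton library. The whole series held 72788 barcodes.

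mSGOs came from dissociated submandibular gland cells of female C57BL/6 mice aged 8-12 weeks and grew embedded in Matrigel. The cultures came from several animals, and whether a library mixed them is not given in the sources used here. Both libraries were of organoids collected on day 7, and the proton library had received 7 Gy of protons on day 5, in the plateau region of the beam. A library of organoids that received 7 Gy of photons on day 5 is set beside it. Cells that excluded propidium iodide were sorted for 3′ droplet libraries, and each group had 1 library, so no difference was tested.

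Ionizing radiation breaks DNA, which stabilizes p53, a transcription factor that switches on genes of cell cycle arrest, repair and apoptosis. Transcripts of G2 and mitosis are made mainly in cycling cells, in the later part of the cell cycle. DNA that leaks into the cytosol after such damage can start the type I interferon response, in which secreted interferon switches on a set of antiviral genes.

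The chosen barcodes held 6881847 UMIs in the control and 8227443 in the proton library, with medians of 5981 and 5417 UMIs and of 1681 and 1600 detected genes per barcode. They made up 14.1% and 7.23% of the barcodes but held 40.7% and 27.9% of the UMIs. Neat1, another nuclear RNA that the choice did not use, was at 1041 and 900 UMIs scaled to the same total in each library (CPM), against 36.5 and 19.7 CPM in barcodes that met the other limits but had under 1% Malat1 (low-Malat1 barcodes, 1698 and 6983). The median Malat1 share was 4.77% and 7.47%, and the median mitochondrial share 1.37% and 1.74%. Near the limit, 65 control and 62 proton barcodes had a Malat1 share from 0.5% to 1%. No barcode was shared between both libraries among the chosen ones, and 40 were among all deposited ones.

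The barcodes carried epithelial transcripts in both libraries. Krt14 and Krt5, keratins of basal duct cells, were at 5123 and 2083 CPM in the control and at 5030 and 1859 CPM in the proton library. Epcam was at 839 and 764 CPM. Of 22 immune cell markers 13 were at 0 in both libraries, among them Ptprc, the leukocyte marker CD45, and the list summed to 55.2 CPM in the control and 61.6 CPM in the proton library. Fibroblast markers summed to 0.145 and 0.486 CPM with 6 of 8 at 0, endothelial markers to 15.1 and 14.7 CPM with 5 of 8 at 0, and erythroid and glial markers to 0.436 and 0.122 CPM with 6 of 8 at 0.

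Most genes had similar levels in both libraries. Ratios are given as log2 of proton over control CPM with 1 CPM added to each, with a 95% interval that covers counting error only. The interval takes every UMI as independent and leaves out variation between barcodes, animals, cultures and library preparations. It is too narrow for a gene with many of its UMIs in few barcodes. Over the 4745 genes with at least 100 UMIs in sum and 20 CPM in the higher library, the median log2 ratio was 0.04 with an SD over genes of 0.30, and 92.6% lay within 0.5 of 0. A total of 135 genes (2.85%) were at least 1.5-fold higher in the proton library and 93 (1.96%) at least 1.5-fold lower, and 32 and 12 passed 2-fold. The balance of both directions depended on the scaling, with 106 higher and 117 lower under median-of-ratios scaling, and 177 and 77 when mitochondrial and nuclear transcripts were left out of the totals. In the photon library, set against the same control, 3.15% of genes were at least 1.5-fold higher and 1.61% lower. The gene lists below use members with at least 20 UMIs over both libraries, a lower minimum than that of these shares. With no minimum on UMIs or CPM, 760 of 15787 genes were at least 1.5-fold higher in the proton library and 618 lower. Because the UMIs of all barcodes were summed, fewer cells of a type and less RNA per cell cannot be told apart.

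**Figure D1:**
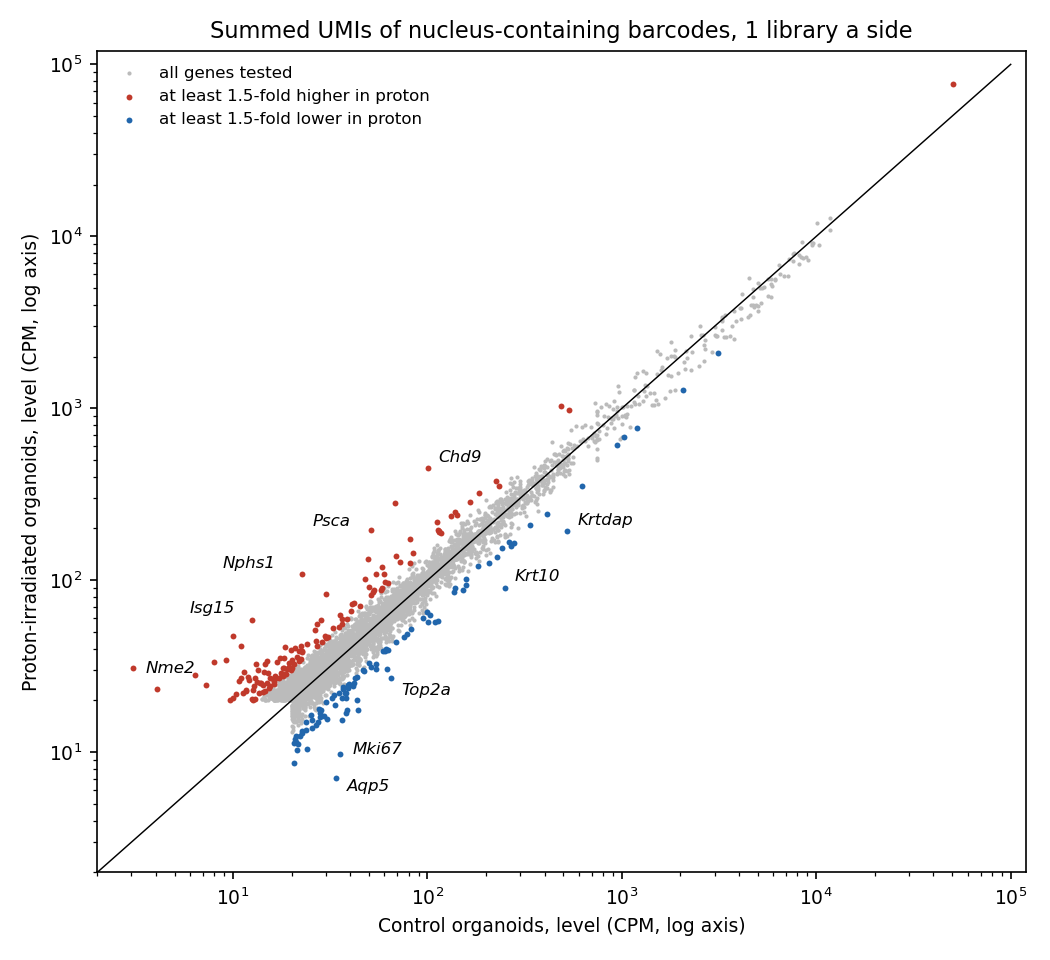
Level of each of the 4745 genes in the control (x axis) and the proton library (y axis), both in CPM on log axes, with the line of equal levels. Red and blue points are the 135 genes at least 1.5-fold higher and the 93 at least 1.5-fold lower in the proton library, with Nme2, Chd9 and Isg15 above and Aqp5 and Mki67 below the line.

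Genes of G2 and mitosis were lower in the proton library. All 41 genes of the list had a lower level, and 33 were at least 1.5-fold lower, against 1.96% of all genes past the minimum on level. The median log2 ratio of the list was -0.95, against 0.04 for all genes. In the photon library the median of the list was -0.84, and 28 of the genes were at least 1.5-fold lower (1.61% of all genes). Of the 41 genes, 16 passed the minimum on level. All of those 16 but Cdk1, Cenpa, Tpx2, Ube2c, Prc1 and Smc4 were at least 1.5-fold lower.

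Mki67 (chr7:135689784-135716450 in GRCm38.p6), which encodes the proliferation marker Ki-67, was at 35.3 CPM in the control, 9.72 CPM in the proton and 9.01 CPM in the photon library. Its proton log2 ratio of -1.76 (-2.11 to -1.42) was the lowest of the list. Top2a, the topoisomerase that untangles sister chromosomes, was at 65.0 and 26.9 CPM in the control and the proton library, a log2 ratio of -1.24 (-1.47 to -1.01). The cyclins of mitotic entry had ratios of -1.62 for Ccna2, -1.57 for Ccnb1 and -1.37 for Ccnb2.

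The mitotic kinases were lower as well. Aurka, which matures the spindle poles, had a log2 ratio of -1.46, Plk1 of -1.43, and Aurkb and Bub1, kinases of the chromosome passenger complex and the spindle checkpoint, of -0.997 and -0.95. Ratios of spindle and centromere genes were -1.19 for Hmmr, -1.17 for Sgo2a, which is in no list and protects cohesin at centromeres, -1.14 for Cdc20, the activator of the anaphase-promoting complex, and -1.09 for Cenpf. Birc5, which encodes survivin, had a ratio of -1.07. The kinase gene Cdk1 was at 35.5 and 27.1 CPM, with a ratio of -0.38 (-0.64 to -0.12), and Ube2c, the most abundant gene of the list, at 130.05 and 102.8 CPM with the smallest ratio, -0.34 (-0.47 to -0.20).

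Promoters of 2 list members are printed as examples of 2 short sequences that many cell cycle promoters hold, the CCAAT box and TTTGAA, which is a cell cycle homology region. The windows are the 120 bases before the start in the RefSeq promoter table (GRCm38.p6), read 5′ to 3′ on the gene's strand, and capitals mark either sequence on either strand. They are chr4:118437344-118437463 for Cdc20 and chr9:70421555-70421674 for Ccnb2, both on the minus strand.
Cdc20: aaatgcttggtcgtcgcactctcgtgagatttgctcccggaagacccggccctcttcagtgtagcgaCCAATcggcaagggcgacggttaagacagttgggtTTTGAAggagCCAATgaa
Ccnb2: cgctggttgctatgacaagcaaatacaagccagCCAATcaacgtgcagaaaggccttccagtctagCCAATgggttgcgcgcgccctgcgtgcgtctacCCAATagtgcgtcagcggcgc
Cdc20 holds 2 CCAAT and 1 TTTGAA and Ccnb2 holds 3 CCAAT, none of which overlap. Over the 250 bases before the start, searched on both strands, CCAAT was in 29 of 37 windows of the list (78.4%), from 35 matched genes, and in 33.8% of all 32851 windows. For p53 targets CCAAT was in 19 of 37 windows (51.4%), and for interferon response genes in 9 of 31 (29.0%). TTTGAA was in 15 of the 37 (40.5%) and in 16.0% of all windows. A match says only that the letters are there.

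Barcodes differed in how many G2 and mitosis UMIs they held. After each barcode was thinned to 1000 UMIs, 39.8% of control barcodes (Clopper-Pearson 36.8% to 42.9%) and 33.9% of proton barcodes (31.4% to 36.5%) had at least 1 UMI of the list, against 84.8% and 78.9% before thinning. Barcodes of 1 library are no replicates, so the intervals of shares here and below leave out variation between animals, cultures and libraries. At least 4 UMIs were found in 5.25% (3.96% to 6.81%) of control and 2.23% (1.51% to 3.16%) of proton barcodes, a pattern that the plot of UMIs per barcode shows. The tenth of barcodes with most UMIs of the list held 65.8% of its UMIs in the control and 58.9% in the proton library. Mki67 UMIs were found in 102 of 1010 control and 41 of 1347 proton barcodes before thinning.

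Genes of S phase and replication showed smaller differences. Of 37 genes used, 30 were lower, 10 at least 1.5-fold (1.96% of all genes), and none was at least 1.5-fold higher (2.85%), with a median log2 ratio of -0.41. Hells, a chromatin remodeller, was at 24.0 and 10.5 CPM (log2 ratio -1.12) and Tk1, the thymidine kinase of the salvage pathway, at 37.9 and 17.0 CPM (-1.11). Uhrf1, which maintains DNA methylation at replication, had the lowest ratio, -1.20 (-1.84 to -0.50). Rrm1, a ribonucleotide reductase subunit and the most abundant gene of the list, went the other way, with 62.0 and 86.8 CPM and a ratio of 0.48 (0.30 to 0.65). The linker histone gene Hist1h1b, in neither list, was at 61.9 and 30.5 CPM.

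Interferon-stimulated genes were higher in the proton library. Of 36 listed genes 35 were in the gene table and 29 had at least 20 UMIs. Of these, 28 were higher and 18 at least 1.5-fold higher, against 2.85% of all genes past the minimum on level, and none was 1.5-fold lower. Some reached 20 UMIs mainly through the proton library, such as Ifit3 with 1 and 20 UMIs, so the counts lean toward higher genes. The median log2 ratio was 0.76 in the proton and 0.78 in the photon library, and 7 of the genes passed the minimum on level. Of those 7, Isg15, Bst2 and Eif2ak2 were at least 1.5-fold higher, with proton ratios of 2.15, 0.93 and 0.59.

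Isg15 (chr4:156199424-156200818), which encodes a ubiquitin-like modifier, was at 12.5 CPM in the control, 59.1 CPM in the proton and 48.8 CPM in the photon library. Its proton log2 ratio was 2.15 (1.84 to 2.48), and it was the only gene of the list among the 15 highest genes. Ifit1, which binds foreign RNA caps, had the largest ratio of the list, 3.33 (2.63 to 3.81), from 4 UMIs in the control and 123 in the proton library. Rsad2, the antiviral enzyme viperin, had 3 and 39 UMIs (2.00, 1.22 to 2.47), and Mx1, an antiviral GTPase, had 0 and 13 UMIs, where 0 UMIs allow up to 0.436 CPM.

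Transcription factors of the response were described next. Stat2 was at 3.49 and 9.12 CPM (log2 ratio 1.17) and Irf7, a factor that amplifies the response, at 6.83 and 14.6 CPM (0.99). Irf9, which binds DNA together with STAT2, had a ratio of 0.14 (-0.21 to 0.49). The RNA sensors Ifih1 and Ddx58 had ratios of 0.69 (0.14 to 1.24) and 0.26 (-0.31 to 0.84). Ifitm3, by far the most abundant gene of the list, was at 1003 and 1020 CPM, a ratio of 0.02 (-0.02 to 0.07), and Trim25 had the lowest ratio, -0.10.

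The promoters of Isg15 and Ifit1 are printed to show the interferon-stimulated response element, searched here as GAAANNGAAA on either strand. They are chr4:156200819-156200938 on the minus strand and chr19:34640769-34640888 on the plus strand, again from RefSeq with GRCm38.p6, with matches in capitals.
Isg15: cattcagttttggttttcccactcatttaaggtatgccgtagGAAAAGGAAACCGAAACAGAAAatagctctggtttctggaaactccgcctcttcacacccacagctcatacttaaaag
Ifit1: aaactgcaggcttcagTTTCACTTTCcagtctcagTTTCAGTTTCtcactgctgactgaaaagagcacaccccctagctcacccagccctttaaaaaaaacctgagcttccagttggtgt
Isg15 holds 3 matches, each overlapping the next, ending 56 bases before the start, and Ifit1 holds 2 separate matches on the other strand, the nearer ending 75 bases before the start. GAAANNGAAA was in the 250 bases before the start in 9 of 31 windows of the list (29.0%), from 26 matched genes, and in 2.98% of all windows.

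A small number of barcodes held a sizeable part of the interferon UMIs other than those of Ifitm3. Without Ifitm3, at least 1 UMI of the list was found in 22.7% (20.1% to 25.4%) of control and 28.6% (26.2% to 31.1%) of proton barcodes after thinning, and in 64.6% and 70.9% before. At least 4 such UMIs were found in 15 proton barcodes (1.11%, 0.625% to 1.83%), in 18 photon barcodes (1.18%) and in 0 of 1010 control barcodes. A count of 0 allows a share of up to 0.297% at 3 counts and of up to 0.365% by the Clopper-Pearson interval. The 15 proton barcodes held 20.0% of the list's proton UMIs when Ifitm3 was left out, and 1.70% of all proton UMIs. Leaving out these barcodes was a choice made after the data had been seen, and it takes away the measured signal itself. Without them the median log2 ratio of the list, with Ifitm3, was 0.52 and the ratio of Isg15 1.18.

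Single genes of the list were more concentrated still. At least 50% of the 123 Ifit1 UMIs lay in 3 proton barcodes, and 26 proton barcodes had any. At least 50% of the 39 Rsad2 UMIs lay in 2 barcodes. The 486 Isg15 UMIs were spread over 171 barcodes (12.7%), with at least 50% of them in 12, against 60 barcodes (5.94%) in the control. After thinning, Isg15 UMIs were in 0.891% (0.408% to 1.68%) of control and 3.86% (2.90% to 5.03%) of proton barcodes, and in 2.06% and 7.00% of low-Malat1 barcodes. No cell class that lacks the gene was named here, so the share that free RNA gives was not measured.

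**Figure D2:**
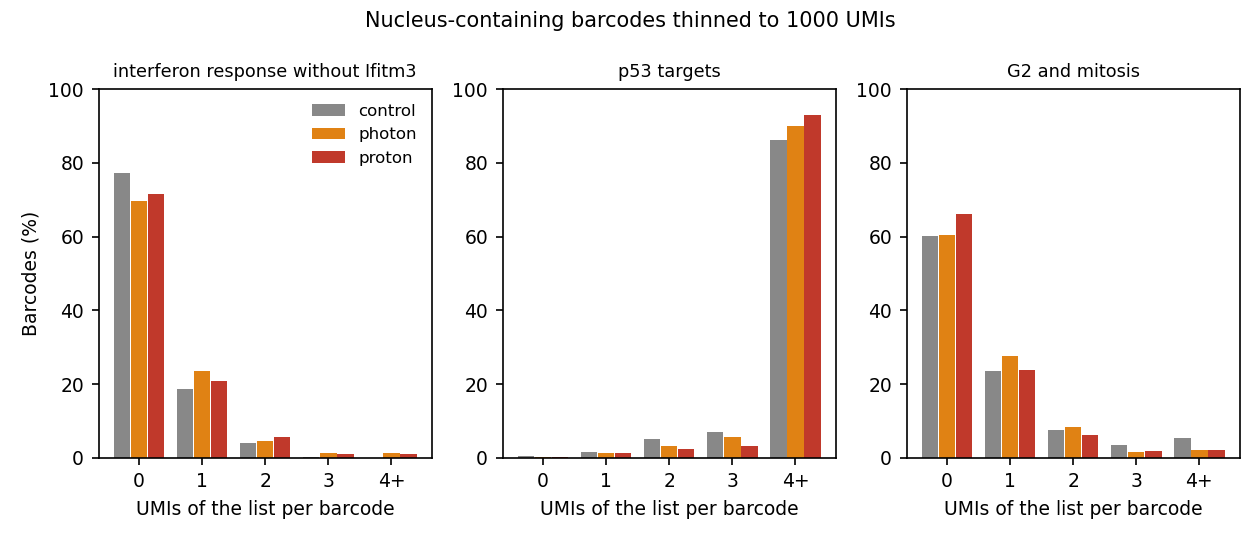
Share of nucleus-containing barcodes (y axis, %) with 0, 1, 2, 3 or at least 4 UMIs (x axis) of 3 gene lists, after thinning each barcode to 1000 UMIs. Grey, orange and red bars are the control, photon and proton libraries. At least 4 G2 and mitosis UMIs were in 5.25% of control and 2.23% of proton barcodes, and at least 4 p53 target UMIs in 86.0% and 93.0%.

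Antigen presentation and secreted factors were described as neighbours of the interferon response. Of 16 MHC class I presentation genes, 13 were higher, 2 at least 1.5-fold (2.85% of all genes), and 1 was at least 1.5-fold lower (1.96%), with a median of 0.32. Psmb9, an interferon-induced proteasome subunit, had a ratio of 1.00 (0.41 to 1.59), while the class I chains H2-K1 and H2-D1 had 0.40 and 0.37 and their light chain B2m 0.28 (0.17 to 0.38). Psmb10, another immunoproteasome subunit, had the lowest ratio, -0.66, and Pdia3, a chaperone of class I assembly and the most abundant gene of the list, 0.13.

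Of 23 cytokines and secreted factors, 16 were higher, 4 at least 1.5-fold (2.85% of all genes), and none was 1.5-fold lower (1.96%). The chemokine genes Ccl5 and Cxcl10 had 1 and 3 UMIs in the control and 56 and 38 in the proton library, with log2 ratios of 2.77 (2.03 to 2.98) and 1.97 (1.19 to 2.44). These UMIs lay in 9 and 13 proton barcodes, and 1 barcode held 26 of the Ccl5 and another 22 of the Cxcl10 UMIs. Serpine2, a secreted inhibitor of serine proteases, was at 49.4 CPM in the control, 133 CPM in the proton and 125 CPM in the photon library, spread over 538 proton barcodes. The neutrophil chemokine genes Cxcl1 and Cxcl2 had ratios of 0.37 and 0.46, and Il6 had 0 UMIs in both libraries. Tslp, an epithelial cytokine, had the lowest ratio, -0.37, and Igfbp7, the most abundant of the list, -0.09.

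p53 target genes were higher in the proton library. Of 35 genes used, 33 were higher, 10 at least 1.5-fold (2.85% of all genes), and none was 1.5-fold lower (1.96%), and 23 of the list passed the minimum on level. Of the 10, Fas, Eda2r and Gdf15 were under that minimum. The median log2 ratio was 0.38 in the proton and 0.27 in the photon library. The p53 gene Trp53 itself had a ratio of -0.10 (-0.31 to 0.10).

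Among genes of cell cycle arrest, Cdkn1a (chr17:29090979-29100722), which encodes the inhibitor p21, was at 582 CPM in the control, 786 CPM in the proton and 657 CPM in the photon library, a proton log2 ratio of 0.43 (0.38 to 0.49). Ccng1, a cyclin that p53 induces, was at 112 and 217 CPM (0.95, 0.83 to 1.07). Sfn, which encodes 14-3-3 sigma, was lower, with 1325 and 1175 CPM (-0.17). Among genes of feedback and apoptosis, Mdm2, the ligase that degrades p53, was at 58.3 and 90.2 CPM (0.62, 0.45 to 0.80), Trp53inp1 at 58.3 and 119.2 CPM (1.02) and the death receptor gene Fas at 3.63 and 8.99 CPM (1.11, 0.55 to 1.67). Perp, a desmosomal protein and the most abundant gene of the list, was at 5031 and 5373 CPM (0.09). Bax had a ratio of 0.50, while the apoptosis genes Bbc3 and Pmaip1 had 0.03 (-0.29 to 0.36) and 0.17 (-0.04 to 0.39).

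p53 target UMIs were found in nearly all barcodes. After thinning, at least 4 were found in 86.0% (83.7% to 88.1%) of control and 93.0% (91.5% to 94.3%) of proton barcodes. Most UMIs of the list came from Perp and Sfn. Without both, a choice made after the data had been seen, the shares were 26.5% (23.8% to 29.4%) and 43.4% (40.7% to 46.1%). Ccng1 UMIs were in 8.91% (7.23% to 10.8%) and 17.1% (15.1% to 19.2%) of barcodes after thinning and in 40.1% and 54.9% before. At least 50% of the Ccng1 UMIs of the proton library lay in 162 barcodes. In the list of DNA damage signalling and repair, 13 of 28 genes were higher and 15 lower, none at least 1.5-fold higher (2.85% of all genes) and 3 at least 1.5-fold lower (1.96%), with a median of -0.03. Its highest and lowest ratios were 0.58 (-0.11 to 1.25) for Prkdc, the kinase of end joining, and -0.92 (-1.55 to -0.25) for Mdc1, a scaffold at DNA breaks.

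The Notch pathway showed differences in single members. Notch signalling passes between neighbouring cells when a Jagged or Delta ligand binds a Notch receptor, whose cleaved part then switches on Hes and Hey genes with Rbpj. Of 26 genes used, 14 were higher and 12 lower, 2 at least 1.5-fold higher (2.85% of all genes) and none 1.5-fold lower (1.96%), with a median of 0.02. The receptor gene Notch1 (chr2:26457902-26503822) was at 185 CPM in the control, 323 CPM in the proton and 278 CPM in the photon library, with a proton ratio of 0.80 (0.70 to 0.89). The receptor genes Notch2 and Notch3 had ratios of -0.45 (-0.89 to -0.01) and -0.42 (-0.83 to -0.01).

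The ligand gene Jag1 was at 67.1, 84.5 and 83.2 CPM in the same order, a proton log2 ratio of 0.33 (0.16 to 0.50). In low-Malat1 barcodes its ratio had the other sign, -0.25 (-0.39 to -0.10). Jag2 was at 74.8, 81.4 and 75.4 CPM, a ratio of 0.12 (-0.05 to 0.29). The target gene Hes1 (chr16:30065357-30067796) was at 54.6, 109 and 109 CPM, a proton ratio of 0.98 (0.81 to 1.16). Nrarp, a feedback inhibitor of the pathway, had 0.40 (0.22 to 0.58), and Rbpj -0.06 (-0.28 to 0.16). Hes1 UMIs were in 23.2% of control and 34.1% of proton barcodes before thinning and in 6.53% (5.09% to 8.24%) and 9.50% (7.99% to 11.2%) after, and in 5.48% and 10.9% of low-Malat1 barcodes.

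Lists of stem or progenitor and duct cells had medians near 0. They were -0.08 for stem/progenitor I (9 genes), 0.07 for stem/progenitor II (10), 0.06 for basal duct (13) and -0.06 for luminal duct (15). In low-Malat1 barcodes the medians were 0.54, 0.44, 0.43 and -0.35, against 0.21 for all genes, and Itgb1, an integrin chain, had a ratio of 0.97 there. Across the lists 2 genes were at least 1.5-fold higher, Sox9 and Krt15, and 1 was at least 1.5-fold lower, Krt6b, shares near those over all genes (2.85% and 1.96%). Sox9, a transcription factor of duct progenitors, was at 113 CPM in the control, 195 CPM in the proton and 197 CPM in the photon library, a proton ratio of 0.78 (0.66 to 0.91). Krt15, a keratin of basal cells, was at 533 and 983 CPM (0.88, 0.82 to 0.94) and Krt6b at 262 and 167 CPM (-0.65). In the luminal list the ratios ran from -0.49 for the tight junction gene Cldn3 to 0.54 for the keratin Krt19. The surface markers Cd44, Itgb1, Itgb4, Cd164 and Cd24a had ratios of 0.08, 0.01, 0.14, -0.12 and 0.26, and the chromatin protein gene Hmga2 0.42 (0.31 to 0.53) after protons and 0.81 after photons.

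Aqp5 (chr15:99591028-99594829), the water channel of acinar cells, had the lowest ratio of all named genes. It was at 34.0 CPM in the control, 7.05 CPM in the proton and 8.31 CPM in the photon library, a proton log2 ratio of -2.12 (-2.51 to -1.74). Its 234 control UMIs lay in 105 barcodes (10.4%), with at least 50% of them in 13, and its 58 proton UMIs in 43 barcodes (3.19%). After thinning the shares were 2.08% (1.29% to 3.16%) and 0.520% (0.209% to 1.07%), and 2.77% and 0.759% in low-Malat1 barcodes.

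Other acinar and pro-acinar genes did not share one direction. Of 20 listed genes 9 had enough UMIs, and 7 were at 0 in both libraries, among them the saliva protein genes Smgc, Bpifa2, Pip and Lpo. Sostdc1, a secreted inhibitor of BMP and Wnt signals, was at 152 and 87.3 CPM (-0.79), and Slc12a2, the sodium, potassium and chloride cotransporter of secretory cells, at 6.10 and 11.3 CPM (0.79, 0.31 to 1.28). The median over the 9 was 0.13. Of the 6 myoepithelial genes used, the 2 past 1.5-fold were both lower (1.96% of all genes), Csrp1 at 113 and 57.6 CPM and Lgals7, a galectin of stratified epithelia, at 410 and 244 CPM. Acta2 and other contractile genes were among the 8 of 14 with fewer than 20 UMIs.

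Cornification genes, which build the outer layers of skin and oral epithelium, moved in both directions. Of 26 genes used, 11 were higher and 15 lower, 2 at least 1.5-fold higher (2.85% of all genes) and 4 at least 1.5-fold lower (1.96%), with a median of -0.05. Krt10, a keratin of suprabasal cells, was at 249 CPM in the control, 90.7 CPM in the proton and 90.6 CPM in the photon library (proton ratio -1.45, -1.57 to -1.33). Krtdap, which encodes a keratinocyte differentiation protein, was at 521 CPM in the control, 193 CPM in the proton and 324 CPM in the photon library (-1.43, -1.51 to -1.34). The small proline-rich gene Sprr1a, a crosslinked envelope protein, was at 747 and 965 CPM (0.37). Klk10, a kallikrein protease, had 9 and 82 UMIs (2.25), of which 55 proton UMIs lay in 1 barcode.

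**Figure D3:**
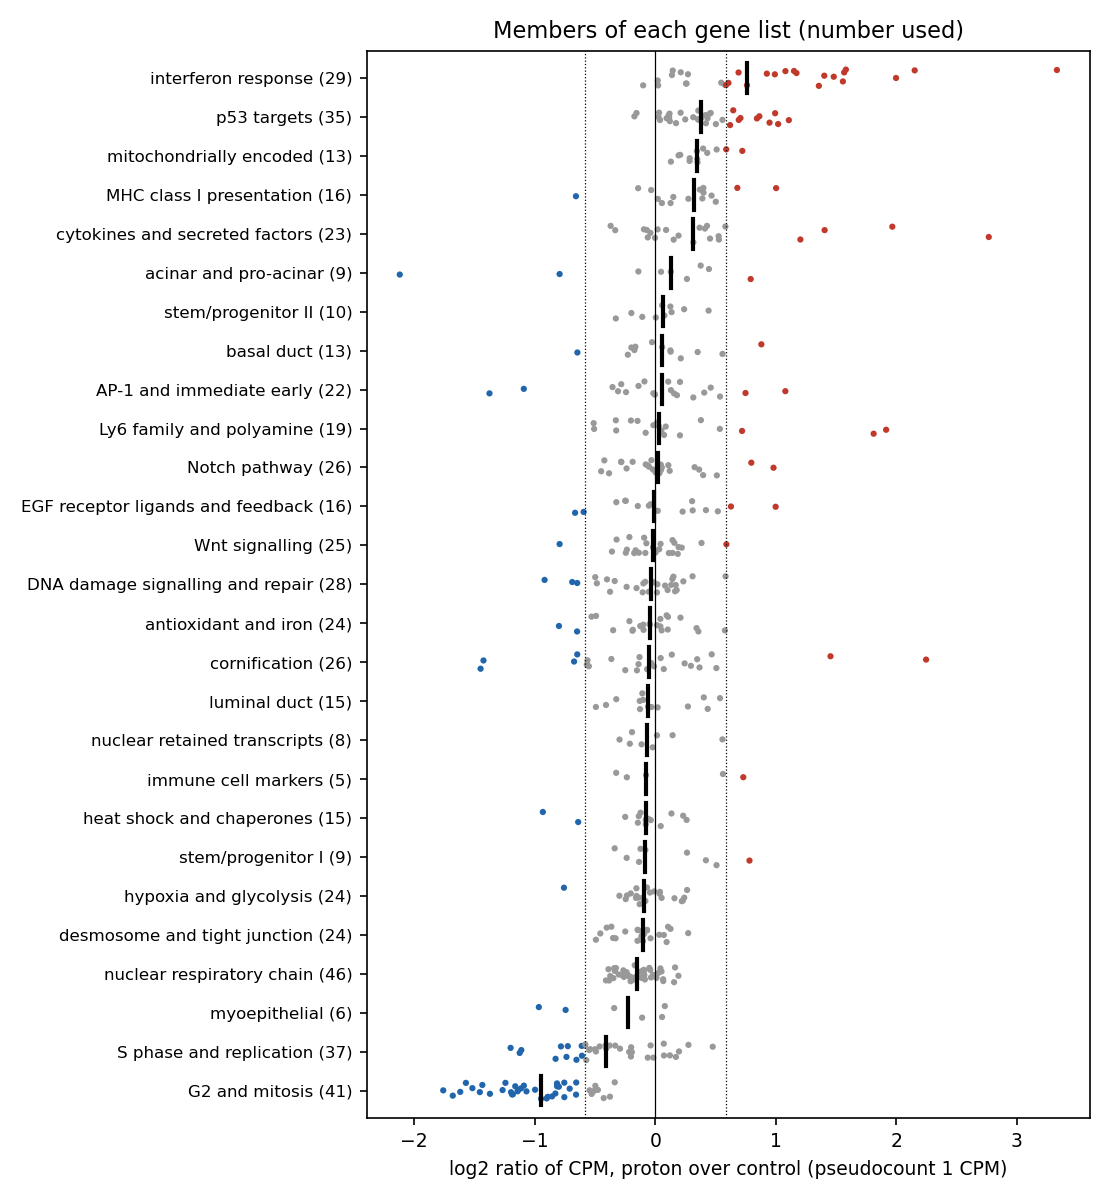
log2 ratio of proton over control CPM (x axis) of each gene with at least 20 UMIs, for the 27 lists with 5 or more such genes (y axis, number in brackets). Black bars are medians, dotted lines 1.5-fold, red and blue points genes beyond it. The medians run from -0.95 for G2 and mitosis to 0.76 for interferon response.

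The lists of immediate early, heat shock, EGF receptor, hypoxia and glycolysis, and antioxidant genes had medians between -0.09 and 0.05. Among immediate early genes Fos was at 81.7 CPM in the control and 174 CPM in the proton library (1.08, 0.94 to 1.22), while Jun had a ratio of 0.16 and Nr4a1, an orphan nuclear receptor, of -1.09. The heat shock genes Hspa1b and Hspa1a were both lower (-0.93 and -0.64). Dusp6, a phosphatase that feeds back on ERK signalling, was at 12.9 and 26.9 CPM (1.00, 0.66 to 1.35). Of 24 hypoxia and glycolysis genes 1 passed 1.5-fold, Gapdh (-0.76), and of 24 antioxidant genes 2, Sod1 (-0.80) and Nqo1 (-0.65), all of them lower (1.96% of all genes). Gstm1, a glutathione transferase, was at 44.0 and 17.6 CPM (-1.27, -1.56 to -0.995).

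Mitochondrially encoded and nuclear respiratory chain transcripts went in opposite directions. All 13 of the first were higher, 2 at least 1.5-fold (2.85% of all genes), with a median of 0.35, and 37 of 46 of the second were lower, none past 1.5-fold (1.96% of all genes), with a median of -0.15. Malat1 was at 50737 and 76435 CPM. The mitochondrial share and Malat1 were used to choose the barcodes, so their values are descriptions only.

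Genes among the 15 highest by the bound of their interval nearest 0 showed 2 patterns over barcodes. One was a spread over many barcodes. Chd9, a chromatin helicase, was at 100.1 CPM in the control, 450 CPM in the proton and 183 CPM in the photon library, a proton log2 ratio of 2.16 (2.04 to 2.28). It was in 43.3% of control and 79.1% of proton barcodes before thinning and in 11.3% (9.40% to 13.4%) and 35.7% (33.1% to 38.3%) after, and no proton barcode held more than 20 of its 3706 UMIs.

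Nme2, a nucleoside diphosphate kinase, and Nphs1 and Olfr77, the genes of the kidney protein nephrin and of an olfactory receptor, were spread likewise. Nme2 was at 3.05, 30.8 and 6.09 CPM in the control, proton and photon libraries, Nphs1 at 22.7, 108 and 44.7 CPM and Olfr77 at 10.03, 47.3 and 22.8 CPM. The proton log2 ratios were 2.97, 2.21 and 2.13, and the photon ratios 0.81, 0.95 and 1.11. In low-Malat1 barcodes, Chd9, Nme2, Nphs1 and Olfr77 had ratios of 3.12, 3.78, 2.96 and 1.74. Whether reads of any of these genes were counted alike in all libraries was not tested. Nme2 UMIs lay in 221 proton barcodes, at most 3 in any of them.

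Nme1, the closest relative of Nme2, was at 107 and 91.3 CPM in the control and the proton library. Whether reads moved between Nme2 and any gene of similar sequence was not tested, so the value of Nme2 is uncertain. The unnamed gene models Gm26619, Gm9817, Gm26510 and Gm47398, left out of the named genes, had ratios of 2.26, 1.98, 1.95 and 1.80 in the proton and 0.91, 0.52, 0.99 and 0.84 in the photon library.

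The other pattern was a large part of the UMIs in few barcodes. Psca (chr15:74714839-74717065), a surface protein of the Ly6 family, was at 51.1 CPM in the control, 196 CPM in the proton and 380.0 CPM in the photon library, a proton ratio of 1.92 (1.75 to 2.08). Psca UMIs were in 17.4% of control and 27.8% of proton barcodes before thinning and in 3.56% and 7.65% after. Of its 1612 proton UMIs, 372 lay in 1 barcode and at least 50% in 4, and without the barcode with most UMIs in each library the ratio was 1.62.

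**Figure D4:**
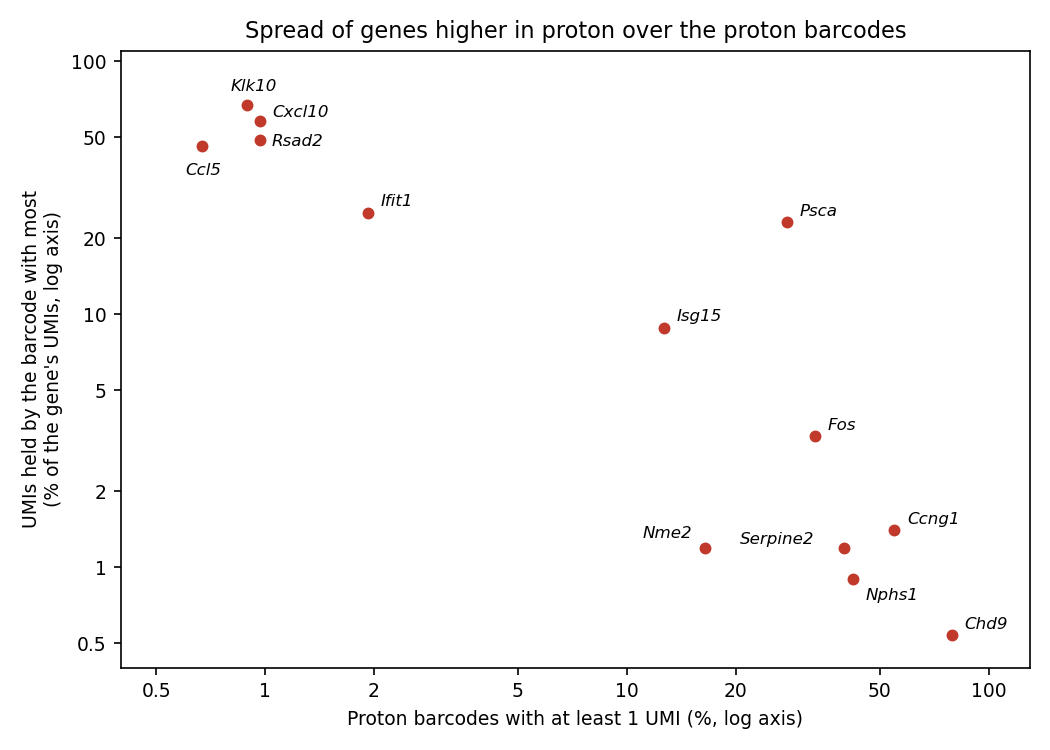
For 13 genes higher in the proton library, the share of the 1347 proton barcodes with at least 1 UMI before thinning (x axis, %, log axis) against the share of the gene's UMIs held by the barcode with most of them (y axis, %, log axis). Chd9 lies at lower right, in 79.1% of barcodes, and Klk10, Cxcl10, Rsad2 and Ccl5 at upper left, in about 1% or fewer.

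Further genes among the 15 highest had proton log2 ratios from 1.09 to 1.43. Dda1, a subunit of a ubiquitin ligase, was at 30.1, 82.8 and 66.8 CPM in the control, proton and photon libraries. Ak1, an adenylate kinase, was at 11.3, 29.3 and 22.8 CPM and Nme4, a mitochondrial nucleoside diphosphate kinase, at 13.1, 32.7 and 34.2 CPM. Psrc1, a spindle protein, was at 11.0, 26.98 and 27.2 CPM, opposite in direction to the mitotic genes. Gcnt2, which branches surface sugars, was at 47.7, 102 and 87.8 CPM. All of these lay above the control in both irradiated libraries, which share that control.

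Low-Malat1 barcodes of the same libraries were the nearest comparison. Their median depth was 3619 UMIs in the control and 1151 in the proton library. Over 4028 genes the median log2 ratio was 0.21, and 960 genes (23.8%) were at least 1.5-fold higher and 94 (2.33%) at least 1.5-fold lower, so their ratios are read against 0.21. The interferon list had a median of 1.16 and the p53 list of 0.44 in them. The G2 and mitosis list had -0.32, against -0.95 in the nucleus-containing barcodes.

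Mitotic genes were among those that differed between the 2 kinds of barcodes. Mki67 had a log2 ratio of -0.10 (-0.51 to 0.31) in low-Malat1 barcodes, Top2a 0.24 (-0.05 to 0.52) and Hmmr 0.33, whereas Birc5 had -1.05 (-1.26 to -0.84), close to its -1.07 among the nucleus-containing ones. Krt10 had -0.18 (-0.30 to -0.06), while Krtdap had -1.58 and Aqp5 -1.59 (-1.91 to -1.27). Isg15 had 1.44 (1.21 to 1.67), Chd9 3.12 and Nme2 3.78. Mitochondrially encoded genes had a median of -0.51 there, against 0.35. Depth and Malat1 share differ between the kinds of barcodes and between the libraries, and their part in these values was not tested.

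**Figure D5:**
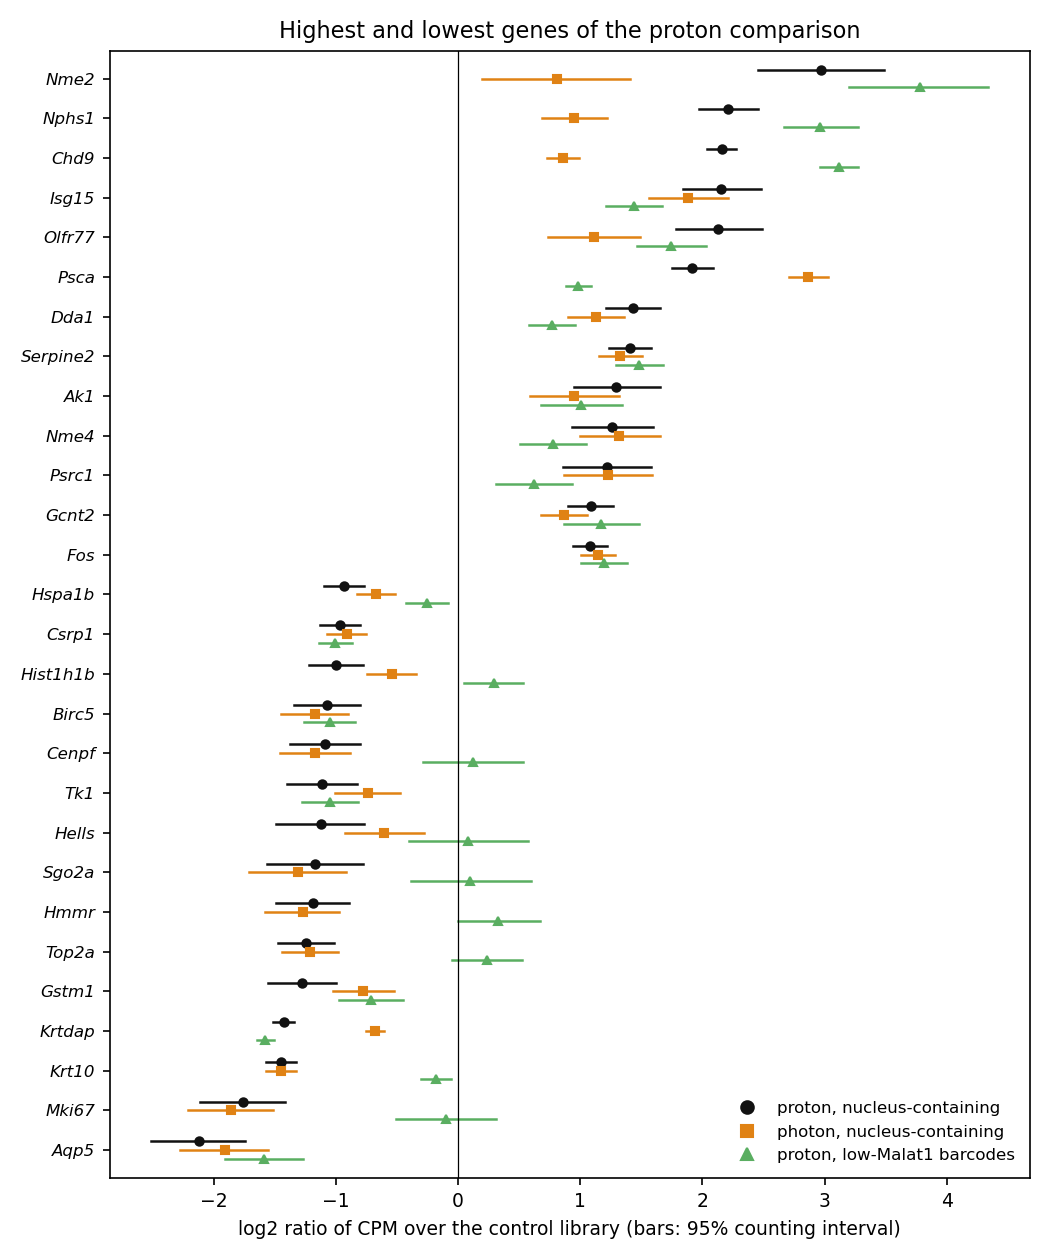
log2 ratio over the control library (x axis) of 13 of the 15 highest and of the 15 lowest genes (y axis), with 95% counting intervals. Black circles are proton and orange squares photon nucleus-containing barcodes, and green triangles are proton low-Malat1 barcodes, whose median over all genes was 0.21. Nme2, Chd9 and Nphs1 lie further right for protons than for photons, and Mki67, Top2a and Hmmr lie near or right of 0 in low-Malat1 barcodes.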

How the data were processed

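The authors deposited, per library, a matrix of whole-number UMI counts per gene and barcode. The labels name Cell Ranger 5 and the mm10 build, the study's methods name GRCm39, and the file headers name software 3.0.1 and no build. Coordinates are those of RefSeq in GRCm38.p6, the mm10 assembly, matched by symbol for 42 of 43 named genes. UMIs were summed over the chosen barcodes and scaled to CPM (Python 3.11.15, numpy 2.4.6, scipy 1.17.1). Ratios carry conditional exact binomial intervals, CPM exact Poisson intervals and shares Clopper-Pearson intervals, all at 95%. None of these covers variation between animals, cultures or libraries. With 1 library a group no test was run. Genes were called past 1.5-fold. Named genes were the 15 highest and 15 lowest by interval bound, without Malat1, mitochondrial, ribosomal protein and unnamed genes (199 of the latter 2 kinds), the extremes and most abundant member of gene lists (30 lists in all), and genes the study names. Some genes under this rule are not reported here. Other genes were picked after their values were seen. The barcode rule, members and lists were chosen with earlier results of these data known. Alternatives changed each limit on barcodes, the scaling, the pseudocount, the minimum on level and the treatment of doublets, which the reported values keep. The ratio code was tested on simulated data.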

Additional observations from a re-analysis of the deposited data

Results flagged for a closer look

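In 7 genes past 1.5-fold in the proton library the photon ratio had the other sign, with a counting interval that left out 0. These differences were not tested, and both ratios share the control library. Sprr2e, a small proline-rich envelope gene with close paralogs, had log2 ratios of -0.65 after protons and 0.81 (0.59 to 1.03) after photons. Rpl9, a ribosomal protein gene with many processed copies, had 1.09 and -0.14, and whether its reads were counted alike in all libraries was not tested. Rps29, another ribosomal protein gene, had -0.59 and 0.20. Gstp1, a glutathione transferase with a near-identical paralog, had 0.68 and -0.21. Tsix, the RNA antisense to Xist, had -0.62 and 0.25. The gene models AY036118 and Gm28727 had -0.68 and 0.18, and 0.70 and -0.51.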

How the results depend on the processing

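Of the 34 named genes past 1.5-fold, 28 kept their direction relative to 0 under all 18 alternatives, of which 2 were added after the data had been seen (leaving out each gene's top barcode, and leaving out barcodes of 4 or more interferon UMIs). The interferon median ran from 0.50 to 1.16, p53 from 0.31 to 0.44, Notch from -0.06 to 0.18 and G2 and mitosis from -1.10 to -0.26. In low-Malat1 barcodes 960 genes were 1.5-fold higher, the G2 and mitosis median was -0.32, and Top2a (0.24), Hmmr (0.33), Cenpf (0.12), Sgo2a (0.10), Hist1h1b (0.29) and Hells (0.085) were above 0. All genes had a median of 0.21 there, and Top2a, Hmmr and Hist1h1b lay above it while Cenpf, Sgo2a and Hells lay below. The cause was not tested. Thinning to 1000 UMIs moved 24 of the 43 named genes outside their counting intervals and gave an interferon median of 0.52. Of the 2645 genes that still passed the minimum on level, 96 were higher and 74 lower, against 135 and 93 of 4745 without thinning. Without barcodes with G2 and mitosis UMIs, which takes out the measured signal, the median of that list was -0.26 and Hmmr was at 0.56. With no minimum on UMIs or CPM, more genes of few UMIs entered, and 760 of 15787 genes were higher and 618 lower. At 2-fold, 32 and 12 genes passed. Scrublet's automatic threshold marked under 0.5% of barcodes and so had not worked. The top scores were removed instead, which took 7 control and 6 proton barcodes, so doublets were largely untested. Depth limits genes of few UMIs, such as Ifit3 with 1 control UMI.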

Other observations

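Lists of signalling and epithelial structure that the comparison did not turn on were close to the median of all genes. Among ligands and feedback genes of the EGF receptor, 2 of 16 were at least 1.5-fold higher and 2 lower, against 2.85% and 1.96% of all genes. The ligand gene Areg was at 161 CPM in the control and 216 CPM in the proton library, a log2 ratio of 0.42 (0.31 to 0.53), while Epgn, another ligand, had the lowest ratio, -0.67 (-1.14 to -0.19). Of 25 Wnt signalling genes 1 was at least 1.5-fold higher and 1 lower, near the shares over all genes. Rnf43, a ligase that removes Wnt receptors, had the highest ratio, 0.59 (0.07 to 1.12), and Wnt4, an abundant gene of the list, was at 131 and 171 CPM. No gene of 24 for desmosomes and tight junctions passed 1.5-fold.

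Abundant stress genes did not share one direction. The chaperone gene Hsp90aa1 was at 379.5 and 446 CPM (0.23, 0.16 to 0.30) and Gclc, of glutathione synthesis, at 174 and 221 CPM (0.34, 0.24 to 0.45). The small heat shock gene Hspb1 had a ratio of 0.14 (0.12 to 0.15), Pgk1, a glycolytic enzyme, 0.04 and Fth1, the ferritin heavy chain, 0.05. Ftl1, the ferritin light chain, was at 1100.0 and 782 CPM (-0.49, -0.54 to -0.44) and Txn1, thioredoxin, at 745 and 516 CPM (-0.53). The heme oxygenase gene Hmox1 had 0.58 (0.30 to 0.86). Egr3, an immediate early transcription factor, had -1.38 (-1.97 to -0.61), from 24 UMIs in the control and 6 in the proton library. In the list of Ly6 family and polyamine genes Lypd3 had the lowest ratio, -0.51, and Ly6d, the most abundant member, was at 3266 and 3299 CPM.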
